A study of Talpa occidentalis and Mus musculus with 35 samples.

Results

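Zinc finger genes named ZNF, ZFP, ZKSCAN or ZSCAN with a number occupied 398 loci of the Iberian mole (Talpa occidentalis) annotation talOcc3, out of 23336 gene lines, or 1.71% of the file. They were chosen by name alone: a locus entered when its symbol, without a copy suffix or low-confidence mark, was one of those 4 stems followed by a number and at most 1 letter. The 398 loci carried 266 symbols and lay on 136 of the 2074 scaffolds. The stem ZNF gave 367 loci of 238 symbols, ZFP 13 loci of 13, ZSCAN 12 loci of 11 and ZKSCAN 6 loci of 4. The series also lists 35 polyadenylated RNA libraries of gonads, 19 from moles and 16 from mice, in 16 groups by tissue part, age and, in the mouse, strain and Fgf9 genotype. No value of a library was used here, so nothing below is a measure of expression, and the loci are described as gene models.

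A C2H2 zinc finger is a short loop in which a pair of cysteines and a pair of histidines hold a zinc ion, and a row of such fingers reads DNA a few bases at a time. Many of these proteins carry in front of the fingers a KRAB domain, which recruits the corepressor TRIM28 and through it the histone methyltransferase SETDB1 and heterochromatin proteins, or a SCAN domain, through which the proteins pair. KRAB zinc finger genes are known for silencing transposons and for keeping imprints, for growing by tandem duplication into clusters, and for a gene structure in which small exons encode the KRAB or SCAN domain and 1 long last exon encodes the fingers.

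The repeat that such an exon encodes is shown first, so that the finger counts below can be read. The sequences are mouse coding sequence from GENCODE M21 on GRCm38, not mole sequence. Among the mouse genes of 119 symbols with 1 mole locus and a shared neighbour, Zfp62 held the longest run of successive finger units, 20 units of 84 bases (28 codons) end to end in its exon 2, on the plus strand. The first unit shown lies at chr11:49215795-49215878 and the fourth at chr11:49216047-49216130, and capitals mark the codons of the zinc-binding cysteines (TGT, TGC) and histidines (CAT, CAC).
Zfp62 unit 1: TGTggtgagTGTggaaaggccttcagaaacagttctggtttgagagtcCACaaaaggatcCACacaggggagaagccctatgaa
Zfp62 unit 2: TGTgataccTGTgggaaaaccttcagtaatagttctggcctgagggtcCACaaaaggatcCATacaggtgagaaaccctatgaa
Zfp62 unit 3: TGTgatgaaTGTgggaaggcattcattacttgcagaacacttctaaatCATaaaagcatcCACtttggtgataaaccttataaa
Zfp62 unit 4: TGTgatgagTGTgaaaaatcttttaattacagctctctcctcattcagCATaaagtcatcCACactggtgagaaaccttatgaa
The capitals fall at the same places in all 4 units, and 40 of the 84 positions hold the same base in every one of them. The mole locus ZFP62 was 1 coding part of 2783 bases, not a multiple of 3, at 2079632 to 2082414 of scaffold 21. The mouse gene had 2721 bases in 1 part, and its protein held 25 finger matches.

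Zfp445, the mouse counterpart by name of ZNF445, a KRAB zinc finger protein that guards imprints, is shown for a member whose mole model was short. Its protein held 12 finger matches, but its longest run of units end to end was 2. The 2 units shown lie in exon 6 of 6, on the minus strand, at chr9:122853378-122853461 and chr9:122853294-122853377.
Zfp445 unit 1: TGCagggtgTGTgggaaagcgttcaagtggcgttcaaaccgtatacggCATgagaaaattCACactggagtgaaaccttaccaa
Zfp445 unit 2: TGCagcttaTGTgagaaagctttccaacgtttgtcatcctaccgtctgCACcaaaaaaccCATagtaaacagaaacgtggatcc
Not every member is of this kind. ZFP36, which binds AU-rich elements in messenger RNA, has fingers with 3 cysteines and 1 histidine, and its mouse protein gave 0 matches to the C2H2 pattern. Both of its fingers lie in exon 2 of 2 on the minus strand, at chr7:28378158-28378217 and chr7:28378044-28378103.
Zfp36 finger 1: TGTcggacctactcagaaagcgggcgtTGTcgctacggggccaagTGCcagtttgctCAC
Zfp36 finger 2: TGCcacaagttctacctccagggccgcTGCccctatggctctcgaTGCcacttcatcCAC
The name is therefore not a test of the fold, as ZFP36 shows. A mouse gene without a C2H2 match was found for 8 of 149 matched symbols, among them ZFP36, ZNF503, ZNF703 and ZNF750. Apart from ZFP36, a missing match does not show that the fold is absent, since the pattern allows only set spacings.

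The mole zinc finger loci had few coding parts and 1 large one. A coding part is a stretch of coding sequence between introns of the deposited model, so the largest is the candidate finger exon. The median locus had 3 coding parts (95% interval of the median 2 to 3, n = 398) against 5 over all loci. Its coding length was 1185 bases (1054 to 1350) against 1011, and its largest part 694 bases (630 to 779) against 364.5. The largest part made up a median of 70.0% of the coding length (64.1 to 74.0) against 40.4%, and it exceeded 50% of the coding length in 279 loci, 70.1%, where 42.9% of all loci did. Over all models the zinc finger loci thus had a somewhat longer coding sequence in fewer and larger parts. By model label, the median coding length was 1395 bases (1194 to 1524) against 1365 in EVM models. It was 851 against 575 in exonerate models and 1605 against 930 in ALN models. The largest part was longer within each label, with 645 against 298, 739 against 517 and 1230 against 616. Parts were fewer in EVM models alone, with 4 against 8. These intervals take loci as independent, although copies of a symbol share their sequence.

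**Figure D1:**
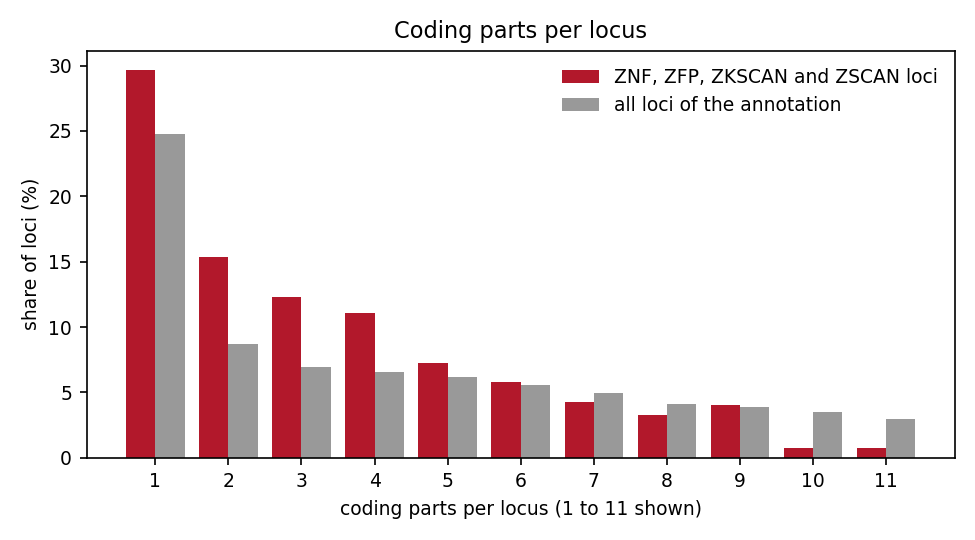
Share of loci (y axis, percent) by number of coding parts (x axis, 1 to 11) for the 398 zinc finger loci (red) and all 23336 loci (grey). Single-part models made up 29.6% of the zinc finger loci and 24.7% of all loci, and the red bars stand above the grey ones from 1 to 6 parts.

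A single coding part was found in 118 of 398 loci, 29.6% (exact 95% interval 25.2 to 34.4), where 24.7% of all loci had one. The model label changed that comparison. Among models labelled EVM, 35 of 259 zinc finger loci had a single part, 13.5% (9.60 to 18.3), against 74 of 14981 EVM models in all, 0.494%, so that zinc finger loci made up 47.3% of those 74. Among models labelled exonerate the order was the other way, with 76 of 115 zinc finger loci, 66.1%, against 79.4% of all exonerate models. Of the 35 single-part EVM loci, 27 had a symbol with several loci and 13 lay on short scaffolds, which here means scaffolds whose last annotated base is below 100000.

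Among the 280 loci with more than 1 coding part, the largest was the last in the direction of transcription in 140, 50% (44.0 to 56.0), where 31.8% of all multi-part loci had it last. It was the first part in 55, 19.6%, where over all multi-part loci that share was 19.6%. The stems ranged from 3 of 10 for ZSCAN and 3 of 5 for ZKSCAN to 124 of 254 for ZNF and 10 of 11 for ZFP. With so few loci in 3 of the 4 stems their intervals are wide (58.7 to 99.8 for ZFP, 6.67 to 65.2 for ZSCAN).

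The coding length was a multiple of 3, as an intact reading frame requires, in 274 of 398 loci, 68.8%, against 87.8% of all loci. Within the label EVM the shares were 72.2% and 94.9%, and within exonerate 60% and 70.4%. A coding length off the frame was thus more frequent at the zinc finger loci within both labels, and in ALN models as well, with 75% against 86.4%.

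The extremes show how far the family departs from its typical structure. ZNF236, ZNF335 and ZNF638 had most coding parts, with 28, 27 and 27. In ZNF236 the largest part was 414 bases of 5358, or 7.73%, and its mouse gene had 31 parts and 30 finger matches. ZNF335, a regulator of neural progenitors, had a largest part of 372 bases, 9.17% of its coding length. At the other end stood ZNF646, whose largest part was 5329 of 5451 bases, ZNF518A, a single part of 4440 bases, and ZNF521, a regulator of blood and neural progenitors, with 3353 of 4176 bases. These 3 had mouse largest parts of 5266, 4434 and 3353 bases. The longest coding lengths were those of ZNF132 with 7413 bases, ZNF462 with 7167 and ZFP30 with 7079. ZNF462 had 7485 bases in the mouse, whereas the mouse Zfp30 had 1644, so the length of the ZFP30 model was not that of the mouse gene.

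**Figure D2:**
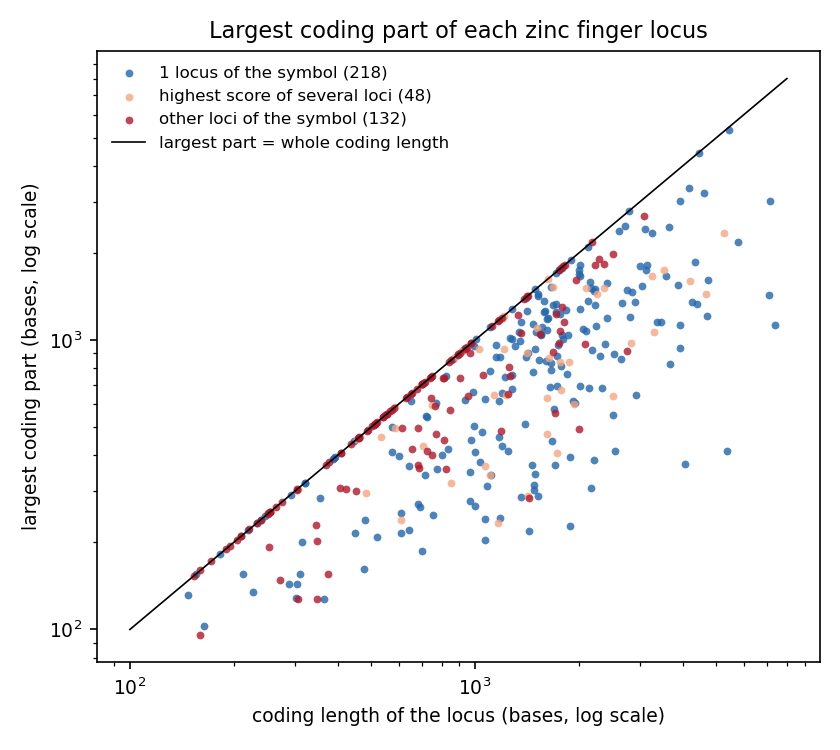
Largest coding part (y axis, bases, log scale) against coding length (x axis, bases, log scale) of the 398 loci; the line marks models made of 1 part. The 132 lower-scoring loci of symbols with several loci (red) have a median coding length of 694.5 bases and lie mostly on the line, while the 218 symbols with 1 locus (blue) reach the greatest lengths.

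Copies were concentrated in a few symbols. Of 266 symbols 48 had several loci, 18.0% (13.6 to 23.2), where 14.6% of all symbols did, so the share itself was near that of the annotation. ZNF658 and ZNF658B had 21 loci each, ZNF717 had 17, ZNF714 had 11, ZNF25 had 10 and ZNF43 had 7. These 6 symbols held 87 loci, 21.9% of all 398, and 64 of the 87 lay on short scaffolds. ZNF260 and ZNF519 followed with 4 loci each, then ZNF37A, ZNF596, ZNF622, ZNF678 and ZNF695 with 3 each, and 35 symbols had 2.

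The score, deposited by the authors for each model without a stated unit, separated 1 locus of most of these symbols from the others. The highest score of ZNF658 was 899, for a locus of 6 parts and 3514 coding bases at 18883035 to 18936121 of scaffold 34. Its other 20 loci had 13.1 to 88.5% of that score, with a median of 48.1%. ZNF717 had its highest score of 1010 on scaffold 5, at 41673706 to 41783598, with 3257 coding bases, and its other loci had 9.90 to 69.4%, with a median of 16.8%. ZNF43 had 991 on scaffold 48, and its other 6 loci had 11.9 to 40.7%. A pair of ZNF658 loci, at 88.3 and 88.5%, came nearest to the first among these 3 symbols. ZNF37A differed, since its 3 loci shared a score of 140.

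**Figure D3:**
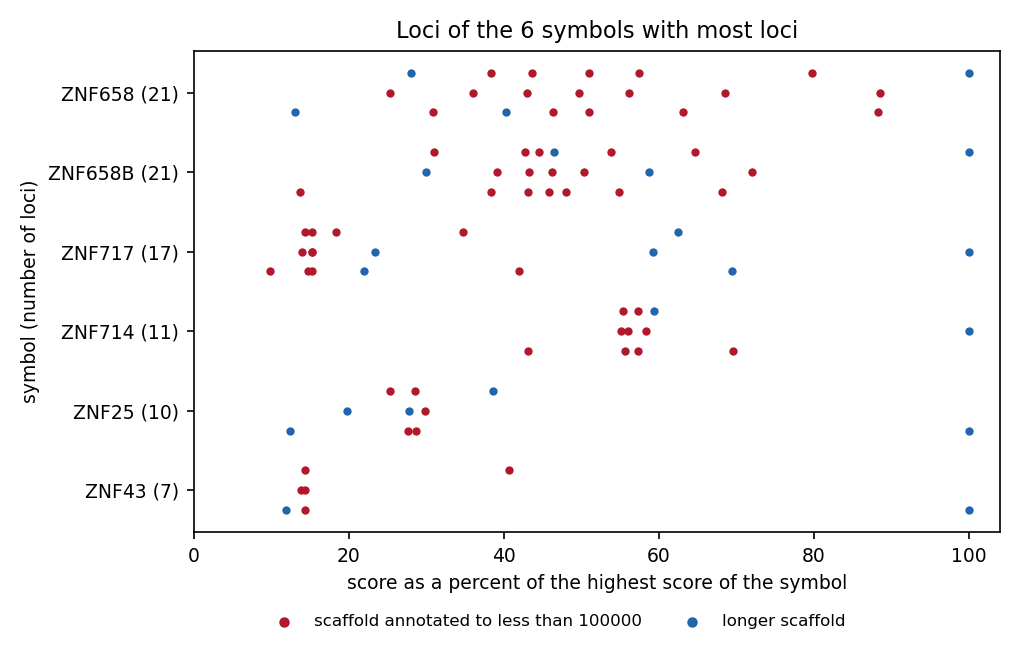
Score of each locus as a percent of the highest score of its symbol (x axis) for the 6 symbols with most loci (y axis, number of loci in brackets); vertical offsets within a symbol only separate the points. Red points lie on scaffolds annotated to less than 100000 and blue points on longer ones; 64 of the 87 points are red, and each symbol has 1 point at 100%, on a longer scaffold.

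The lower-scoring loci of the 48 symbols were shorter models than the highest-scoring ones. The loci were split by score, so the lower percent of the highest score follows from the split itself. How far the score follows model length was not tested, so the difference in length may come with the split as well. The 132 of them had a median coding length of 694.5 bases (574 to 769), a median of 45.2% of the highest score, and a single part in 78, 59.1%. The 48 loci with the highest scores had 1320.5 bases (1029 to 1686) and a single part in 22.9%, and the 218 symbols with 1 locus had 1521 bases (1401 to 1656) and 13.3%. Short scaffolds held 80 of the 132, 60.6%, and this share rested on the symbols with many loci: they held 64 of the 81 lower-scoring loci of the 6 symbols with 7 or more, 12 of 16 for symbols with 3 or 4, and 4 of 35 for symbols with 2. The median coding length of these loci was 749, 624 and 541 bases in that order.

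The lower-scoring loci were also set beside the highest-scoring locus of their symbol by the part of the reference they covered. An interval of the same reference transcript that overlapped that of the highest-scoring locus, by at least 50% of the shorter one, was found for 75 of the 81 lower-scoring loci of the 6 largest symbols, 12 of 16 for symbols with 3 or 4 loci and 15 of 35 for symbols with 2. Loci that named another reference transcript could not be compared and stand in these counts as loci without an overlap. The same reference was named by 75 of the 81, 13 of the 16 and 20 of the 35. Of the loci that could be compared, most thus overlapped in each group, with 75 of 75, 12 of 13 and 15 of 20. The same count was not made for symbols outside the family, so it is not known whether such overlap was more frequent here.

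Successive pieces also occurred. Pairs of loci with 1 symbol on 1 strand, with at most 3 other loci between them, numbered 20. Such pairs were not counted outside the family either. In 9 pairs both loci named the same reference transcript, and 5 of those covered intervals of it that did not overlap; the other 11 named different references, on which intervals cannot be compared. In ZNF142 the pair covered 3056 to 5644 and 507 to 2928 of its reference transcript, with 2370 and 2745 coding bases, and its mouse gene has 5529. The others were ZNF622, ZNF324, ZNF358 and ZNF510. Such pairs were counted above as symbols with several loci, so that count holds both repeated and divided models. In 4 symbols (ZNF658, ZNF717, ZNF43 and ZNF37A) sets of 2 or 3 loci, 10 in all, had the same coding length, score and reference interval, as for 3 loci of ZNF717 with 255 bases and a score of 154.

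Short scaffolds held 91 of the 398 loci, 22.9% (18.8 to 27.3), where 10.9% of all loci lay on them. A zinc finger locus was found on 88 such scaffolds, and on 84 of these every annotated locus was a zinc finger locus. Apart from scaffold 764 with 2 loci, each of the 84 held a single annotated locus, so these are not scaffolds with rows of zinc finger genes. The 91 loci had a median coding length of 740 bases and a single part in 72.5%, against 1410 bases and 16.9% for the 307 on other scaffolds. How much of these differences follows from scaffold length was not tested.

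Clusters were defined as at least 3 zinc finger loci with at most 3 other loci between successive ones. They numbered 19 and held 89 of 398 loci, 22.4% (18.4 to 26.8). By the same definition olfactory receptors, a family known for large clusters, had 796 of 893 loci in clusters, 89.1%, and TRIM genes had 68 of 138, 49.3%. The zinc finger clusters were small, with 9 of them holding 3 loci and the largest 11, or 2.76% of the family, against 137 olfactory receptors, or 15.3%, in the largest cluster of that family. Neighbours within clusters stood a median of 15.1 kb apart, and 41 of 70 successive pairs were on the same strand, 58.6%. Of the 70 pairs, 7 overlapped. The same-strand share was not computed for the olfactory receptor or TRIM clusters or for other neighbouring loci. Whether it was high or low for neighbouring genes is therefore not known.

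The largest cluster covered 107645 to 961902 of scaffold 57 with 11 loci of 9 symbols: ZNF471, ZNF470, ZSCAN4, ZNF264, ZNF132, ZNF551 at 2 loci, ZNF154, ZNF584 and ZNF324 at 2 loci. Its next locus was SLC27A5, and TRIM28, the KRAB corepressor itself, lay on the same scaffold at 983973 to 990902. PEG3, an imprinted zinc finger gene, and AURKC stood between members. The 11 coding lengths ran from 306 bases for 1 of the ZNF324 loci to 7413 for ZNF132, with a median of 1260. Between NLRP5 and SLC27A5, the nearest flanking genes named once in both species, the mouse had 237 protein-coding genes, 2 of them with names of this family, and the later mole assembly MPIMG_talOcc4v2.1 had 54, 13 of them so named and 34 under a locus number. An interval of 237 genes is not the same stretch as this cluster, so these counts are not compared. ZSCAN4, known from the activation of the early mouse embryo's genome, was a single part of 393 bases with a score of 133.

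The second cluster, at 9421309 to 9981720 of scaffold 36, held ZFP82, ZNF565, ZNF567, ZNF382, ZFP30, ZNF527, ZNF570 and ZNF420 between WDR62 and WDR87. In each of the 8 the largest part was the last. Between WDR62 and SIPA1L3, the nearest flanking genes named once in both species, the mouse had 21 protein-coding genes on chromosome 7, of which 15 had names of this family and 16 held at least 2 finger matches. The later mole assembly had 26 coding genes there, 13 with names of this family and 9 under a locus number. The talOcc3 models were thus fewer in this interval than the family names in either. ZNF420, at the edge of the cluster, was a single part of 220 bases, where the mouse gene has 1734 bases and 19 finger matches.

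The third cluster, at 387390 to 592920 of scaffold 48 between GPX6 and OR2Y1, held members named for the SCAN domain: ZSCAN23, ZSCAN12, ZSCAN26, ZKSCAN4 at 2 loci and ZKSCAN8, with ZNF165. None of its 7 loci had a single part, and their coding lengths were 996 to 2415 bases, the narrowest range among the 5 clusters described here. The transposase-derived gene PGBD1 stood among them. Between GPX6 and TBC1D7 the mouse had 247 coding genes, 7 of them with family names, and the later assembly had 95, 0 of them so named and 74 under a locus number, so here too the interval was not the same stretch.

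The fourth, at 71392884 to 71734256 of scaffold 5, held ZNF467, ZNF398, ZNF212, ZNF783, ZNF746 and ZNF862 between PDIA4 and ZBED6CL. Here the largest part was the last in 2 of 6. Between PDIA4 and LRRC61 the mouse had 11 coding genes, 8 of them with family names, and the later assembly had 13, 7 of them so named and 4 under a locus number, near the 6 of talOcc3.

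The fifth, at 31161652 to 31298228 of scaffold 12 between TCAIM and KIAA1143, held ZNF445, ZNF852, ZKSCAN7, ZNF197, ZNF35 and ZNF502. Its median coding length was 1894.5 bases. The mouse had 5 coding genes between TCAIM and KIF15, 3 of them with family names, and the later assembly had 8, 4 of them so named and 3 under a locus number, so talOcc3 had most family names in this interval. A cluster on scaffold 17 with ZSCAN32, ZNF263, ZNF200, ZNF213, ZNF205 and ZSCAN10 had 6 loci as well and was left out of the map of clusters only by the order of ties.

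**Figure D4:**
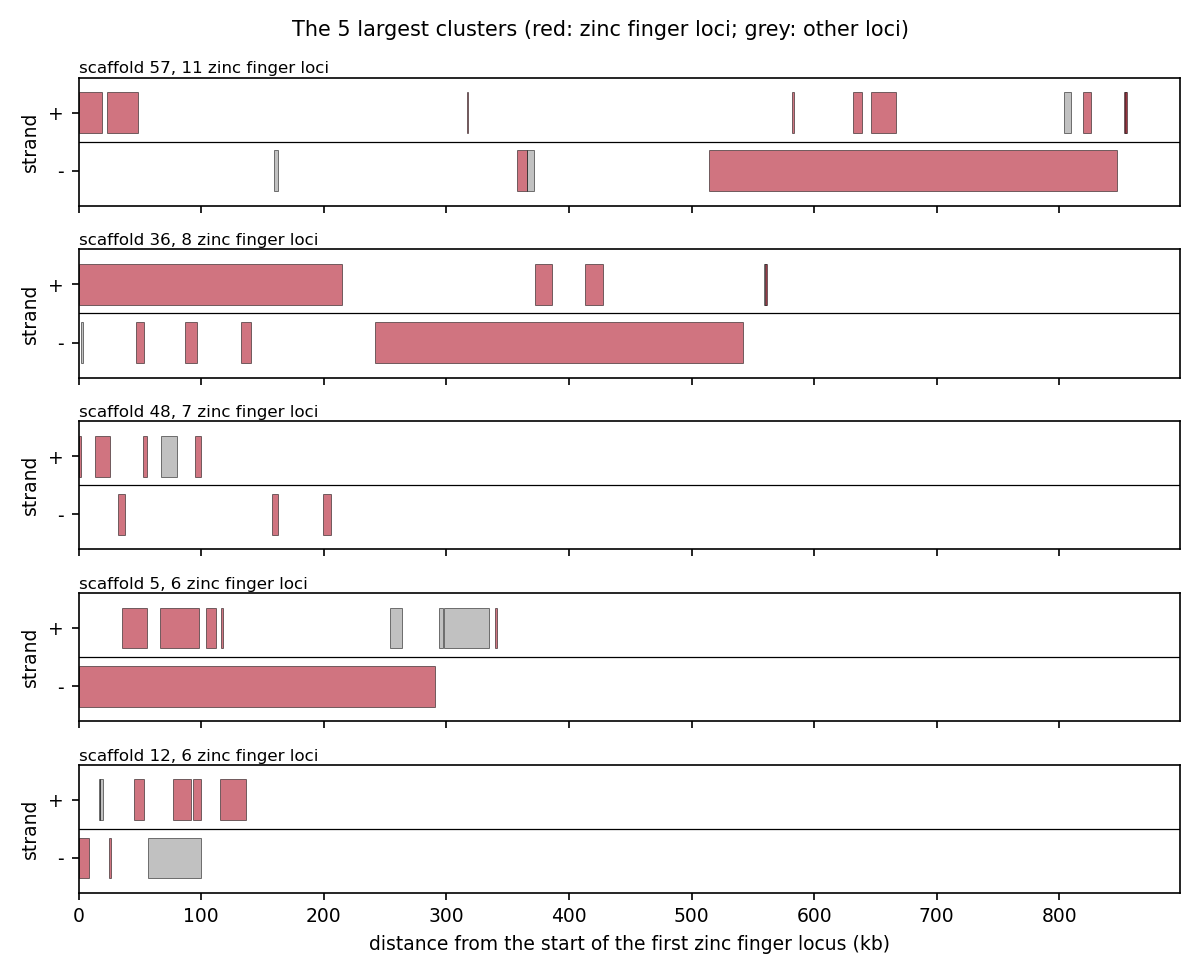
Loci of the 5 largest clusters by distance from the start of the first zinc finger locus (x axis, kb) and strand (y axis); red blocks are zinc finger loci, grey blocks other loci, and loci under 1.5 kb are drawn at that width. The 4 widest red blocks, of ZNF132, ZFP82, ZFP30 and ZNF467, extend over 214.8 to 333 kb and have other zinc finger loci on the opposite strand within them.

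Some long models of the family enclosed other genes. The same count was not made over all loci of the file, so it is not known whether such models were more frequent here. The coding parts of 25 loci spanned a stretch with another whole locus inside it, and in 12 that locus was a zinc finger locus. ZNF132 spanned 333 kb with ZNF154, ZNF584 and both loci of ZNF551 inside, ZFP82 spanned 214.8 kb with ZNF565, ZNF567 and ZNF382, and ZFP30 spanned 300.2 kb with ZNF527 and ZNF570. ZNF467 spanned 290.8 kb with 4 others of the family and KRBA1, and ZNF668 spanned 367.3 kb with 13 loci, none of them of this family. ZFP30, ZFP82 and ZNF467 were also among the 5 highest ratios of coding length to the mouse gene, with 7079 against 1644 bases, 4251 against 1590 and 3678 against 1782.

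The mouse gave a length to set beside each model. By name, reading ZNF as Zfp, 175 symbols with 223 loci had a single mouse gene, and 162 loci of 149 symbols also shared at least 1 neighbour among the 5 nearest genes on each side that are named once in both species. The number in a name does not show that 2 genes are orthologs, and the shared neighbour was required for that reason. The median coding length of these loci was 0.972 of that of the mouse (0.890 to 0.999), and the median largest part was 0.877 of that of the mouse (0.768 to 0.970). Over 12250 other genes with names in both species and a shared neighbour both medians were 1. For symbols with 1 locus in the mole (128) the largest part was at 0.932 (0.795 to 1).

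The medians hide a group of short parts. The largest part was below 0.5 of the mouse length in 37 of 162 loci, 22.8%, where 6.8% of the other genes were, and in 24 of the 128 symbols with 1 locus, 18.8%. It was within 20% of that of the mouse in 79, 48.8%, against 67.7%. Among symbols with 1 locus the shortest relative to the mouse were ZNF292 with 203 against 7080 bases, ZNF804B with 144 against 3646, ZNF804A with 144 against 3214 and ZNF235 with 201 against 1964. The 37 also include lower-scoring loci whose symbol had a longer model, as ZNF609, where 1 locus had 2341 against 2347 bases and a second, of a single part, 204. ZNF12 had 209 against 1820 bases in the same number of parts, 4. In other members the part had equal length, as in ZNF423 and ZNF521, with 3215 and 3353 bases in both species.

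**Figure D5:**
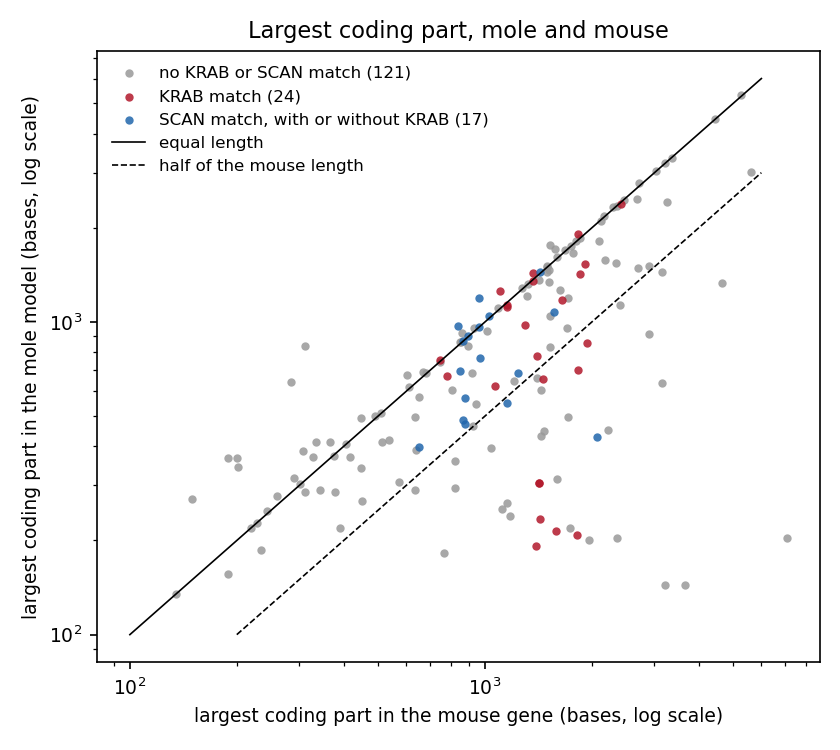
Largest coding part in the mole model (y axis, bases, log scale) against that of the mouse gene of the same name (x axis, bases, log scale) for 162 loci with a shared neighbour, coloured by the domain pattern found in the mouse protein. Points on the solid line have equal lengths, and the 37 points below the dashed line are below 0.5 of the mouse length.

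Mouse proteins with a KRAB pattern but no SCAN pattern numbered 24 by locus, those with SCAN alone 15, those with both 2 and those with neither 121. These are counts of close matches to short patterns: the mouse Zfp37, a KRAB protein, was missed. Zscan2 and Zkscan2, which are named for the SCAN domain, also fell among those with neither, so that class is mixed. Zkscan4, Zkscan7 and Zkscan8, whose names stand for KRAB and SCAN, matched the SCAN pattern alone, so that class is mixed as well. The KRAB pattern was also widened after its first form was seen to miss known KRAB genes, and that first form gave 15, 17, 0 and 130. In all 41 loci with either pattern the largest part of the mouse gene was the last, and in 24 of the 41 it was also the last in the mole model. Under the first form these were 32 of 32 and 16 of 32. The ratio to the mouse was below 0.5 in 9 of the 24 loci with a match to the KRAB pattern alone. It was below 0.5 in 1 of the 15 with a match to the SCAN pattern alone. The difference was not tested, and these are classes of pattern matches, not of domains.

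In the mouse the largest part held most of the finger matches in 106 of 153 loci whose gene had any match. Across the 128 symbols with 1 mole locus, the rank correlation of finger number with the length of the mouse largest part was 0.480 and with that of the mole largest part 0.253. The mole and mouse largest parts correlated at 0.613. These describe genes, which share gene families and are not replicates.

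Of 22 members listed for a known role, 17 had 1 locus and 5 had none by name. ZFP57, which binds methylated imprinting control regions, had 4 parts and 1710 coding bases with a largest part of 1253 bases in last place, against 1263 and 1100 in the mouse. ZNF445 had 7 parts and 1194 coding bases with a largest part of 429 bases that was not the last, against 2958 and 2072 bases in the mouse. The finger exon of Zfp445, of which 2 units are shown above, thus had no counterpart of that length in the mole model. Of the pair of imprint guardians, 1 was therefore modelled at mouse length or more and the other at less.

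Among members linked to germ and stem cells, ZFP42, the pluripotency marker also called REX1, was a single part of 924 bases (mouse 864). ZSCAN10, a stem cell factor, had 9 parts with 1074 of 2090 bases in the largest, against 1565 in the mouse. ZNF541, a meiotic protein of the male germ line, had a largest part of 1858 bases against 1855. ZNF711, an X-linked gene in mammals, had 1071 coding bases and a largest part of 240 against 2415 and 1175.

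Of the 16 listed members with a mouse gene by name, 12 had a largest part within 20% of the mouse length, and the other 4 were ZNF445, ZSCAN10, ZNF462 and ZNF711. That held for 67.7% of the 12250 other genes and for 53.9% of the 128 family symbols with 1 locus. Whether the listed members differ from either was not tested. ZNF143, a promoter-binding activator, had 15 parts in both species and a largest part of 228 bases in both. ZNF410, an activator of CHD4, had 11 parts and 219 bases in both. ZFP64 had 1280 against 1271 bases, and ZFP36 had 955 against 933. ZNF274, ZNF568 and ZNF469 had no locus of that name in talOcc3 and were named in the later assembly, while ZKSCAN1 and ZKSCAN3 were named in neither.

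Most listed partners of KRAB proteins had 1 locus, as did most symbols of the annotation. Of 19 listed, 14 had 1 locus and 5 had several. Over all symbols 14.6% had several, a share that stands beside this list and the list of other C2H2 proteins below. TRIM28 had 18 parts and 2274 coding bases (mouse 2502). SETDB1, the histone methyltransferase that TRIM28 recruits, was at 2 neighbouring loci of scaffold 3 with 2565 and 1419 coding bases, against 3924 in the mouse gene. SUMO2, CBX3, CHD3 and MORC3 were the others with several. Of 25 C2H2 proteins under other names, 21 had 1 locus, 3 had several (PRDM9, ZFX and KLF4) and ZFY had none by name. CTCF, the insulator protein, had 10 parts and a largest part of 781 bases in both species.

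By name, the later mole assembly had 271 symbols of this family. It shared 207 with talOcc3, 77.8% of the 266 symbols there and 76.4% of the 271. Of the 59 symbols named in talOcc3 alone, 19 were among the 48 with several loci and 40 among the 218 with 1 locus. ZNF658, ZNF658B, ZNF717, ZNF714 and ZNF43 were among the 19, and of the 6 symbols with most loci ZNF25 alone was named in both. Genes that the later assembly lists under a locus number without a symbol were not matched.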

How the data were processed

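The file analysed was an annotation of the mole assembly talOcc3, deposited by the authors as gene, transcript and coding lines with a score on transcript lines, whose meaning no label or header states. Other values are 1-based positions as deposited. The labels EVM, exonerate and ALN are those of the file. STAR 2.6.1d and mm9 appear, without a role, in the submitters' processing notes. Columns of per-sample values left unused numbered 0, so library depth is unknown.

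Coding parts were joined to gene lines by parent, using Python 3.11.15, scipy 1.17.1, matplotlib 3.10.9 and numpy 2.4.6. Percent of the highest score was taken over a symbol's loci. Intervals are exact binomial for shares and order-statistic for medians, at 95%. Mouse genes were the longest coding sequences of GENCODE M21 (GRCm38). A finger was C, 2 to 4 residues, C, 12 residues, H, 3 to 5 residues, H. No coordinate was converted. The cluster search and the finger count were tested on simulated data, and the other steps were not.

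The members, lists and rules were chosen with earlier results of these data known. Named loci followed a rule: the 10 symbols with most loci (5 symbols tied at 3 loci for the last places, all named), the 5 largest clusters, the 3 most extreme loci by parts, coding length and largest part, and fixed lists of roles and partners. The finger count in mole RefSeq proteins, planned as a result, was not run, because no mole protein sequences were used here; the mouse finger counts were put in its place after the data were seen. Also chosen after values were seen were the mouse comparison, its shared-neighbour requirement, the short-scaffold limit of 100000, the 2 comparison families, the grouping of symbols with 7 or more loci, the sets with equal values, the sequences shown, the members named for lacking a C2H2 match, the loci named for the lowest largest-part ratios, ZNF423 beside ZNF521, and the final form of the KRAB pattern, the third tried.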

Additional observations from a re-analysis of the deposited data

How the results depend on the processing

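Of 52 alternative values, 30 stayed within the interval of the value reported and 22 did not. No paired analysis was possible because no value belongs to a library. The share of symbols with several loci was 1.53% with copy suffixes kept, 10.2% with loci of at least 50% of the highest score and 12.9% with EVM models. The clustered share was 28.4% on scaffolds annotated to 1000000 or beyond, 15.6% with 0 other loci between, 27.4% with up to 10, and 13.6% with clusters of at least 5. On those scaffolds, by that score and in EVM models, single-part loci were 16.8%, 20.9% and 13.5%, the median coding length 1402, 1425 and 1395 bases, and the median largest share 60.7%, 63.6% and 55.4%; with more than 1 part that share was 54.2%. These alternatives hold fewer loci. The largest part was last in 47.3 to 50.4% of multi-part loci under the alternatives tried. With all pairs matched by name, the ratio to the mouse was 0.754 for the largest part and 0.847 for coding length. With a KRAB or SCAN match it was 0.754 for the largest part, and with the first KRAB form 0.631 and 0.858 for coding length; these were chosen after seeing the data. Leaving out low-confidence loci tested nothing, since 0 were marked, and its values are counted among the 30 that stayed. The alternatives of the protein finger count were not run.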
